A study of Mus musculus with 53 samples.

Results

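The genes of prostaglandin synthesis, breakdown and reception described here were taken as the rows of the raw count table whose Ensembl identifiers carry the symbols Pla2g4a, Ptgs1, Ptgs2, Ptges, Ptgis, Slco2a1, Hpgd, Ptger2, Ptger3 and Ptger4. All 10 were found among the 55421 gene identifiers of the table, and all 10 passed the filter on low counts in each of the 10 comparisons made. Prostaglandins are signalling lipids that are made from arachidonic acid and act close to the cell that releases them. Cytosolic phospholipase A2 frees arachidonic acid from membranes, a cyclooxygenase turns it into an unstable intermediate, and terminal synthases convert that intermediate into prostaglandin E2, prostacyclin and related products. In the gut, prostaglandin E2 is known for its parts in mucosal repair and inflammation and for its link to polyp growth, and cyclooxygenase is the target of aspirin-like drugs. Cells take prostaglandin E2 up through a transporter, break it down with a dehydrogenase, and sense it through the EP receptors.

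The series holds RNA-seq counts of 53 libraries in 11 groups from mouse proximal colon and small intestine, taken as whole tissue or tumour. Every mouse, wild type (WT) controls included, carried VilCreER, a Cre recombinase that tamoxifen switches on and that the Villin promoter drives in the gut epithelium, so the floxed and mutant alleles are recombined in the epithelium. From proximal colon on a mixed C57BL/6J N6 background came 5 libraries of Braf V600E/+ Alk5 fl/fl mice, called BA, at day 30 after induction, 5 of BA mice at day 30 given ampicillin (1 g/L), neomycin (1 g/L), vancomycin (500 mg/L) and metronidazole (1 g/L) in the drinking water from the day after tamoxifen, 4 of Alk5 fl/fl mice, called A, at day 30, 4 of A mice at day 30 that had received sulindac (0.4 g/L), and 4 of WT mice at day 30. Sulindac is a cyclooxygenase inhibitor. It was given in the drinking water from the day after tamoxifen for 14 days and then withdrawn, so it had stopped well before tissue was taken. The same tissue and background gave 4 primary tumours of BA mice and 3 WT tissue samples that carry no day. From small intestine came 10 libraries of Apc fl/fl mice and 6 of WT mice at day 4 on the mixed background, and 5 primary tumours of Apc fl/+ mice and 3 WT tissue samples on an inbred C57BL6/J background. BA mice carry an activated Braf allele and lack the TGFβ receptor Alk5 (gene Tgfbr1) in the recombined cells, A mice lack Alk5 alone, and Apc mice lose 1 or both copies of the Wnt-pathway brake Apc. No untreated WT or A group was given antibiotics and no WT group was given sulindac.

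Library totals ran from 516985 to 32824795 counts with a median of 18356939, and the smallest was Apc fl/fl replicate 1. Counts over a whole gene do not check a floxed allele, of which only a part is removed. In CPM, here the count over the library total with no further scaling, Tgfbr1 was 38.1 to 54.2 in BA at day 30 against 35.2 to 68.2 in WT, and Apc was 34.2 to 174 in Apc fl/fl against 64.0 to 97.3 in WT, with the lowest value in Apc fl/fl replicate 8. Other library properties differed between groups compared here. The gene model Gm13394 was above 10 CPM in all 18 day 30 libraries of A and BA mice and in 0 of 4 WT, in 3 of 4 BA tumours and 0 of 3 of their WT, and in 0 of 5 Apc fl/+ tumours and 3 of 3 of their WT. The Y-linked gene Ddx3y, a mark of male mice, was above 10 CPM in 3 of 4 BA tumours and 0 of 3 of their WT, in 1 of 5 Apc fl/+ tumours and 3 of 3 of their WT, and in every day 30 library. What Gm13394 marks was not tested, and it cannot be told apart from genotype at day 30 or from tumour in Apc fl/+ mice. In whole tissue, fewer cells of a type and less RNA per cell cannot be told apart.

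The stretches before the starts of 4 members are shown because these 4 had the largest changes in Apc fl/+ tumours. They are the 250 bases before the RefSeq start on GRCm38, 5′ to 3′ on the strand of the gene, with matches to short promoter motifs in capitals.
Ptgs2 (chr1:150099781-150100030, plus strand): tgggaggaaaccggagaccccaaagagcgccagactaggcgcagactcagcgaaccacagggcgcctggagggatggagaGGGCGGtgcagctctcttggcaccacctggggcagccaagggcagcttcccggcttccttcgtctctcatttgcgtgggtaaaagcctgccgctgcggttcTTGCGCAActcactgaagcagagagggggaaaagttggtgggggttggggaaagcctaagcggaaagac
Ptges (chr2:30903298-30903547, minus strand): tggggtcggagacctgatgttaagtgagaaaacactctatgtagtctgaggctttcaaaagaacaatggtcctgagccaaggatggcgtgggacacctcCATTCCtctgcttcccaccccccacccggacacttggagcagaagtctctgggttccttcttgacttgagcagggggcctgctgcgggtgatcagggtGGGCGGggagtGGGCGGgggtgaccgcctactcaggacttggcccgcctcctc
Hpgd (chr8:56294302-56294551, plus strand): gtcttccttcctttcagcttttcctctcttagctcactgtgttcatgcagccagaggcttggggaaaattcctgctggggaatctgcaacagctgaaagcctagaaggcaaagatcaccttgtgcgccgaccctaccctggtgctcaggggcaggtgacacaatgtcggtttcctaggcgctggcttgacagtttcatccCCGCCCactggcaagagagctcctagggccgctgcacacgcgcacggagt
Ptger4 (chr15:5244188-5244437, minus strand): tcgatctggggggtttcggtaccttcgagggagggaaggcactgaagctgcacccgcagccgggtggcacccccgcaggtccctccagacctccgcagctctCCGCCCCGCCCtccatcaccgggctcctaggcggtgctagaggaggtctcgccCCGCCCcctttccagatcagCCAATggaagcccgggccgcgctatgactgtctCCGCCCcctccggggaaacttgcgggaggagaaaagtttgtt

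The search covered both strands. GC boxes (GGGCGG), which 32.7% of all 32851 RefSeq windows of that length held, began at -170 in Ptgs2, at -53 and -42 in Ptges, at -50 in Hpgd and at -148, -143, -95 and -42 in Ptger4, where the first 2 overlap by a base. Ptgs2 held a C/EBP site (TTGCNNAA, in 9.56% of windows) at -69, Ptges a TEAD site (CATTCC, in 12.6%) at -151, and Ptger4 a CCAAT box (CCAAT, in 33.8%) at -75. Among the other motifs searched, the TATA box (TATAAA, 12.4% of windows) matched in none of these 4 windows and in Pla2g4a and Slco2a1 among the 9 members in the RefSeq table, and the TCF/LEF core (CTTTGA, 13.8%), the AP-1 site (TGANTCA, 6.75%), the CRE half-site (CGTCA, 17.8%) and the NF-kB site (7.25%) matched in none of the 9. Ptgis had no entry. The RefSeq start of Hpgd lies before the gene start that the annotation used for counts gives. The window of Ptges lies inside the gene as that annotation gives it, from 30889471 to 30929863. These matches describe the letters of the windows and nothing was measured at them.

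Per kilobase of exon, the median level over all 53 libraries spanned from the breakdown enzyme down to the receptors. Hpgd stood at 96.3 CPM per kilobase, Ptgs1 at 9.82, Slco2a1 at 7.39, Pla2g4a at 6.35, Ptger4 at 5.49, Ptges at 2.53, Ptgis at 2.06 and Ptgs2 at 1.36. Ptger2 (0.520) and Ptger3 (0.449) were the least abundant, with a median of 52 and 55 reads per library, and Ptger3 and Ptgis were at 0 in at least 1 library. All levels that follow are normalised CPM, in which the library total is further scaled by edgeR's TMM factor, and which compare libraries for 1 gene and not genes with each other.

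Each group was compared with its own WT by edgeR's quasi-likelihood test, and a gene was called when its p-value, adjusted over all genes tested by the Benjamini-Hochberg method, was under 0.05. In Apc fl/+ tumours 4 members were higher and 3 lower, where 61.5% of all genes tested were called, 31.4% as higher and 30.09% as lower. The small intestine of Apc fl/fl mice at day 4 had 1 higher and 4 lower (54.2% of all genes called, 27.5% higher and 26.7% lower). In BA tumours 1 was higher and 1 lower (13.2% of all genes, 7.46% higher and 5.71% lower). The background of BA tumours moved with single libraries, and the 2527 genes called became 696 without WT replicate 1, 1089 without WT replicate 3 and 1380 without tumour replicate 4 (696 to 3641 over all 7), and 168 with the term for Ddx3y. At day 30, BA colon had 1 member higher and 6 lower (55.1% of all genes, 25.8% higher and 29.3% lower), BA colon with antibiotics 1 higher and 3 lower (39.6%, 21.8% higher and 17.8% lower), and A colon with or without sulindac 0. For BA at day 30 the median log2 fold change of the 10 members was -0.66 beside -0.03 over all genes tested. Ranges did not overlap between groups for 6 members in Apc fl/+ tumours (60.3% of all genes tested) and 3 in Apc fl/fl (15.8%). At day 30 they did not overlap for 6 members in BA (45.4%) and 3 in BA with antibiotics (33.4%). For antibiotics against untreated BA the numbers were 2 members and 10.8%. The 5 day 30 groups share the same 4 WT or the same 5 BA libraries in several comparisons, so these counts are not independent of one another.

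**Figure D1:**
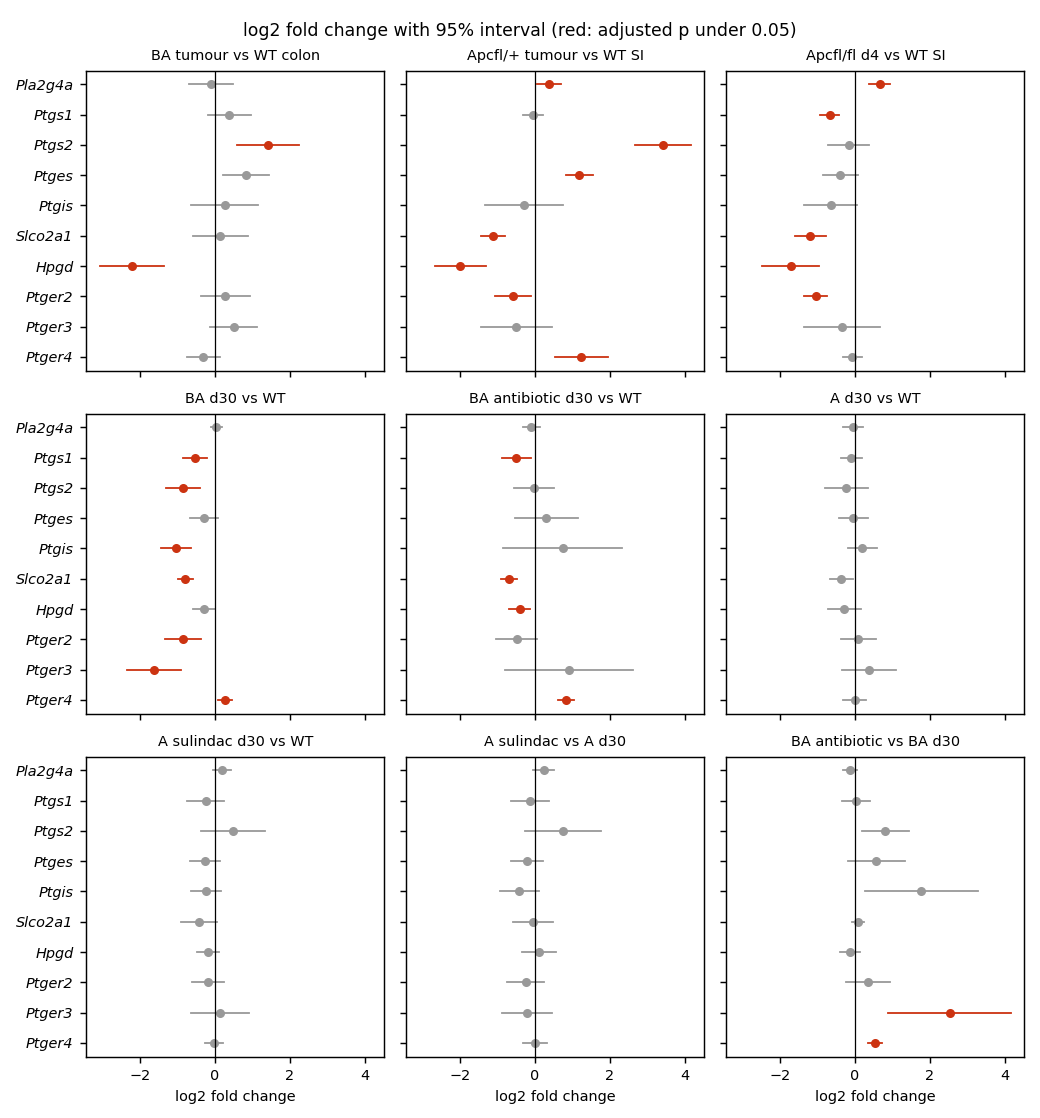
Log2 fold change (x axis) of each member (y axis) in 9 comparisons, 1 panel each, as a point with its 95% confidence interval from the edgeR fit, in red where the adjusted p is under 0.05 and in grey otherwise. The highest value is Ptgs2 in Apc fl/+ tumours, at 3.43, Hpgd lies furthest below 0 in both kinds of tumour, and the 3 panels with A mice hold no red point.

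The first step is the release of arachidonic acid. Pla2g4a, the gene of cytosolic phospholipase A2 (chromosome 1, 149829618 to 149961290, minus strand), was higher in both Apc models and was called in neither BA model. In Apc fl/+ tumours its levels were 35.2, 37.9, 35.9, 40.6 and 33.7, against 21.5, 31.8 and 25.7 in WT small intestine. All 5 tumours lay above the 3 WT samples, by 0.37 on the log2 scale (95% interval 0.07 to 0.68, adjusted p 0.0386), but this call was lost without any 1 of WT replicates 1 and 3 and tumour replicates 1, 3, 4 and 5 (0.25 to 0.39, adjusted p 0.0530 to 0.105). In Apc fl/fl at day 4 the lowest, median and highest levels were 16.5, 43.0 and 46.1, against 20.3, 24.5 and 28.7 in WT, a mean of 38.8 ± 9.77 (SD, n = 10) against 24.4 ± 3.36 (n = 6) and a log2 fold change of 0.66 (adjusted p 0.000696). The ranges overlapped, since the lowest Apc fl/fl library was below every WT library. That library was replicate 1, the smallest of the series, with 11 reads of Pla2g4a. At day 30 the 5 BA libraries at 39.7 to 42.9 sat within the WT range of 35.8 to 44.5, a difference of 0.04 (-0.12 to 0.19, adjusted p 0.669).

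Among 9 other phospholipase A2 genes, all tested, 5 were higher and 1 lower in Apc fl/+ tumours, 4 and 2 in Apc fl/fl at day 4, 3 and 2 in BA tumours and 2 and 3 in BA at day 30. RNA of Pla2g2a, a gene of the secreted class, led the list in 3 of these. Its log2 fold change was 3.21 in Apc fl/+ tumours (178 against 17.9 CPM), 4.01 in BA tumours (15.4 against 0.959) and 4.00 in BA at day 30 (4.35 against 0.274). Whether this RNA gives working enzyme in these mice was not tested. Day 4 Apc fl/fl tissue was led by the secreted Pla2g5, at 3.24 (105 against 10.8 CPM). At the other end were Pla2g4b in Apc fl/+ tumours (-1.05), Pla2g7 in Apc fl/fl (-0.78), Pla2g10 in BA tumours (-1.58) and Pla2g16 in BA at day 30 (-1.42).

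Ptgs2, the inducible cyclooxygenase (chromosome 1, 150100031 to 150108227, plus strand), rose in both kinds of tumour and fell in BA colon at day 30. In the 5 Apc fl/+ tumours its levels were 25.2, 35.98, 55.4, 65.1 and 51.3, against 3.86, 3.80 and 4.44 in WT small intestine. Every tumour lay above every WT sample, a 10.7-fold difference (log2 3.43, 95% interval 2.68 to 4.17, adjusted p 7.59e-05). In the 4 BA tumours the levels were 25.8, 10.4, 12.2 and 20.3, against 5.59, 8.97 and 5.05 in WT proximal colon. Here too the groups did not overlap, with a 2.65-fold difference (log2 1.41, 0.58 to 2.23, adjusted p 0.0363), though the lowest tumour and the highest WT sample were close to each other. The call in BA tumours was lost without tumour replicate 1 (1.16, adjusted p 0.0670) or tumour replicate 4 (1.33, 0.0887). It was also lost without WT replicate 1 (1.28, adjusted p 0.157) or WT replicate 3 (1.28, 0.145). Ddx3y differs between these groups, and with a term for it the estimate was 1.96 and the call was lost. That estimate rests on 1 tumour, replicate 1, the only tumour not above 10 CPM of Ddx3y, like the 3 WT samples. In Apc fl/+ tumours, which also differ from their WT in Ddx3y, the estimate with that term was 2.53. It too rests on 1 tumour, replicate 1, the only tumour above 10 CPM of Ddx3y, so the term cannot decide whether the call depends on sex.

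In BA tissue at day 30 the direction was the opposite one. The BA libraries had 4.85, 4.16, 7.40, 2.98 and 5.04, against 8.38, 8.11, 9.90 and 9.52 in WT. All 5 were below all 4 WT, with a log2 fold change of -0.86 (95% interval -1.32 to -0.40, adjusted p 0.00493), and with all 5 day 30 groups in 1 fit the call was lost (-0.85, adjusted p 0.0709). After 4 days in Apc fl/fl small intestine Ptgs2 was 1.50 to 9.66 with a median of 4.05. WT had 4.32 to 6.31 with a median of 4.79, and the log2 fold change was -0.17 (-0.72 to 0.37, adjusted p 0.595). The value of 1.50 is 1 read in replicate 1, the smallest library. Ordered by mean over the 11 groups, Ptgs2 ran from Apc fl/+ tumours (46.6 ± 15.9 CPM, SD, n = 5) through BA tumours (17.2 ± 7.18, n = 4), A with sulindac (12.6 ± 8.01, n = 4) and WT at day 30 (8.98 ± 0.868, n = 4) to the inbred WT small intestine (4.03 ± 0.353, n = 3), and every pair of neighbours in that order had overlapping ranges.

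**Figure D2:**
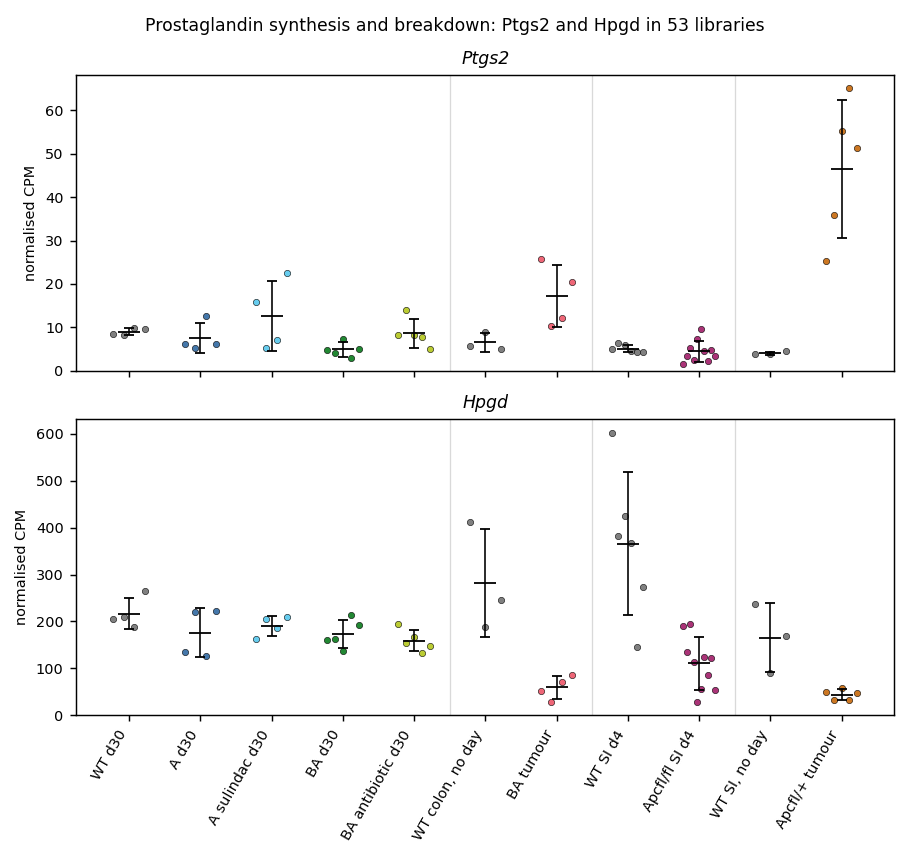
Normalised CPM of Ptgs2 and Hpgd in each of the 53 libraries by group, 1 point per library, with the group mean and SD as a bar. Apc fl/+ tumours reach 65.1 for Ptgs2, and both tumour groups lie at the bottom of the Hpgd panel, between 28.2 and 85.6.

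Ptgs1, the cyclooxygenase that most tissues make without a stimulus (chromosome 2, 36230426 to 36252272, plus strand), was lower in both early models and was not called in either tumour comparison. In BA colon at day 30 it was 30.34, 23.2, 37.5, 24.7 and 26.1, against 37.8, 39.6, 51.4 and 38.1 in WT. The groups did not overlap, by the narrow margin of the third BA and the first WT library, and differed by -0.53 on the log2 scale (-0.86 to -0.21, adjusted p 0.00904). In Apc fl/fl at day 4 it was 18.0 to 44.8 with a median of 31.9, where 18.0 is 12 reads in replicate 1, the smallest library. All were below the WT range of 45.3 to 53.6 with a median of 48.2, and the log2 fold change was -0.68 (adjusted p 0.000214). In BA tumours it was 47.1 ± 11.4 against 36.6 ± 9.28 (log2 0.39, -0.18 to 0.96, adjusted p 0.360), and in Apc fl/+ tumours 50.3 ± 5.47 against 48.5 ± 3.97 (-0.05, -0.32 to 0.22, adjusted p 0.748).

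The terminal synthases went separate ways. Ptges, the microsomal prostaglandin E synthase that works with Ptgs2 (chromosome 2, 30889471 to 30929863, minus strand), was 24.1, 31.1, 21.0, 32.4 and 25.0 in Apc fl/+ tumours, against 11.9, 10.4 and 10.6 in WT. All tumours exceeded all WT samples, by 1.18 on the log2 scale (0.82 to 1.54, adjusted p 0.000355). In BA tumours Ptges was 11.9, 19.1, 18.1 and 11.9 against 10.3, 8.74 and 7.29. These groups did not overlap either (3 members and 26.9% of all genes tested had no overlap in this comparison), but the difference of 0.83 (0.20 to 1.45) did not pass, with an adjusted p of 0.0837. At day 30 it was 6.20 to 9.76 in BA and 7.53 to 11.98 in WT, a difference of -0.28 (-0.66 to 0.09, adjusted p 0.183). At day 4 in Apc fl/fl the difference was -0.40 (adjusted p 0.136), and without the library with the highest level, replicate 5 at 25.5, it was -0.62 (adjusted p 0.00200).

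Ptgis, the prostacyclin synthase of vessel walls and muscle (chromosome 2, 167191805 to 167240604, minus strand), was lower in BA colon at day 30. Its levels there were 4.91, 2.95, 5.29, 3.77 and 3.14, against 7.85, 8.90, 8.53 and 8.40 in WT. All 5 lay below all 4, with a log2 fold change of -1.05 (-1.44 to -0.65, adjusted p 0.000538), and the call was lost with all 5 day 30 groups in 1 fit (-1.04, adjusted p 0.116). It also fell against A at day 30, where the levels were 10.7, 10.3, 6.68 and 10.3 (-1.20, adjusted p 0.000965, and 0.0616 with all 5 day 30 groups in 1 fit). In BA tumours Ptgis was 5.81, 15.1, 8.68 and 18.8 against 11.3, 11.4 and 8.15 in WT, with tumours on both sides of the WT samples and a difference of 0.26 (-0.64 to 1.16, adjusted p 0.722). Of 8 smooth muscle markers summed per library, the totals were 1154 to 4571 CPM in BA and 5788 to 6690 in WT at day 30. Over the same libraries 8 epithelial markers summed to 15692 to 18458 CPM in BA and 8328 to 9581 in WT, and 9 fibroblast markers to 1073 to 1344 and 1499 to 1902. The 6 endothelial markers summed to 99.5 to 132 in BA and 128 to 162 in WT, and 3 of the 6 were called lower, Vwf the most (-0.99, adjusted p 0.00553). The 8 neutrophil markers summed to 324 to 516 in BA and 2.56 to 4.32 in WT, nearly all of it Ly6g (means of 409 and 0.23), with S100a8 and S100a9 at means of 0.105 and 0.182 in BA. Their part in the fall of Ptgis and of the other members at day 30 was not tested.

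The 12 other enzymes and transporters of prostanoids include the efflux pump Abcc4, which exports prostaglandin E2, and the carbonyl reductases Cbr1 and Cbr2. In BA tumours 2 of the 10 tested were higher and 4 lower, led by Abcc4 at 1.59 (55.2 against 18.6 CPM), with Cbr2 lowest at -2.72 (2.63 against 17.6). In BA colon at day 30, 4 were higher and 3 lower, from the aldose reductase Akr1b3 at 1.09 (30.31 against 14.5) to Cbr2 at -2.18 (5.50 against 25.4). The Apc fl/+ tumours had 4 of 11 higher and 1 lower. The largest change was that of the prostaglandin D synthase Ptgds, 3.54 on the log2 scale at a level of 0.669 against 0.0494 CPM, and the thromboxane synthase Tbxas1 was the one that fell, by 0.94. At day 4 in Apc fl/fl, 3 of 9 were higher, led by Abcc4 at 1.18, and 4 lower, down to Cbr1 at -1.37.

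Hpgd, the 15-hydroxyprostaglandin dehydrogenase that starts the breakdown of prostaglandin E2 (chromosome 8, 56294585 to 56321043, plus strand), fell in both kinds of tumour and in Apc fl/fl small intestine. In BA tumours its levels were 52.8, 28.2, 72.0 and 85.6, against 412, 188 and 246 in WT. The highest tumour was below the lowest WT sample, and the difference was 4.66-fold (log2 -2.22, -3.08 to -1.36, adjusted p 0.00794). With a term for Ddx3y the estimate, which rests on tumour replicate 1 alone among the tumours, was -2.42 and the call was lost. In Apc fl/+ tumours the levels were 50.8, 32.8, 57.9, 32.0 and 47.4, against 237, 90.1 and 169. Again no tumour reached the lowest WT sample, and the difference was 4.00-fold (-2.00, -2.69 to -1.31, adjusted p 0.00065). With the term for Ddx3y the estimate, here too from tumour replicate 1 alone among the tumours, was -1.81.

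The fall of Hpgd was present 4 days after loss of both Apc copies. The Apc fl/fl libraries ran from 28.0 to 194 with a median of 118, and WT from 146 to 602 with a median of 374, so the groups overlapped at their edges while the means were 111 ± 55.7 (n = 10) and 366 ± 153 (n = 6), with a log2 fold change of -1.72 (-2.48 to -0.96, adjusted p 0.000733). In BA colon at day 30 Hpgd was 161, 162, 138, 214 and 192 against 205, 210, 188 and 264, a difference of -0.29 (-0.58 to -0.01) that did not pass with an adjusted p of 0.0739, and that did without BA replicate 4 (-0.38, 0.0207). With antibiotics it was 195, 155, 166, 133 and 147 and passed (-0.41, -0.69 to -0.14, adjusted p 0.0230), but not without WT replicate 4 (-0.31, adjusted p 0.0675). By group mean Hpgd was highest in the WT small intestine at day 4 and lowest in the tumours, and no pair of neighbours in that order was free of overlap.

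Slco2a1, the transporter that brings prostaglandins into cells for breakdown (chromosome 9, 102988712 to 103096002, plus strand), was lower in 4 of the 5 mutant groups outside A and not in BA tumours. At day 30 it was 100, 115, 110, 106 and 95.4 in BA and 162, 182, 219 and 180 in WT. The highest BA library lay well below the lowest WT library, with a log2 fold change of -0.79 (-1.00 to -0.59, adjusted p 3.77e-05), and no alternative analysis run changed the call. The Apc fl/+ tumours had 28.4, 42.1, 30.7, 30.7 and 34.9 against 59.6, 71.3 and 72.2, a log2 fold change of -1.12 (adjusted p 0.000294). In Apc fl/fl at day 4 it was 20.3 to 102 (median 62.5) against 117 to 193 (median 131), also without overlap, and the log2 fold change was -1.20 (adjusted p 7.84e-05). In BA tumours it was 48.0, 26.7, 32.8 and 38.1 against 24.4, 52.4 and 22.4, a difference of 0.15 (-0.59 to 0.89, adjusted p 0.815). Those 3 WT samples had less Slco2a1 than the 4 WT samples of the same tissue at day 30, and that difference was not tested.

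Of the 6 endothelial markers, the summed level was 42.3 to 122 CPM in Apc fl/fl at day 4 against 134 to 170 in WT, while it was 244 to 317 in Apc fl/+ tumours against 135 to 147. Slco2a1, which endothelium also makes, was lower in both. The part of vessels in either value was not tested.

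Ptger4, the EP4 receptor, which signals through cyclic AMP (chromosome 15, 5206661 to 5244187, minus strand), rose in Apc fl/+ tumours and in BA colon at day 30. In Apc fl/+ tumours its levels were 85.3, 33.4, 95.1, 96.3 and 88.9, against 32.4, 27.0 and 34.9 in WT. Replicate 2 lay among the WT samples and the other 4 lay far above them. The log2 fold change was 1.24 (0.52 to 1.96, adjusted p 0.00849), and without replicate 2 it was 1.43 (adjusted p 1.01e-05). The epithelial markers summed to 4818 CPM in replicate 2 and 7368 to 10142 in the other 4, and the macrophage markers to 818 and 336 to 484. Their part in the level of Ptger4 was not tested. With a term for Ddx3y the estimate, which rests on tumour replicate 1 alone among the tumours, was 1.33 and the call was lost. In BA colon at day 30 it was 41.9, 46.0, 36.5, 36.5 and 38.7 against 32.9, 30.45, 33.7 and 38.2, an overlapping pair of groups that differed by 0.27 (0.07 to 0.46, adjusted p 0.0233). That small rise was lost without BA replicate 2, WT replicate 1 or WT replicate 2 (0.21 to 0.25, adjusted p 0.0502 to 0.0623) and with all 5 day 30 groups in 1 fit (0.27, adjusted p 0.0610). Ptger4 was not called in BA tumours (-0.31, -0.76 to 0.14, adjusted p 0.351) or in Apc fl/fl at day 4 (-0.07, -0.33 to 0.19, adjusted p 0.652).

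The exons of Ptger4 overlap those of Ttc33 and of the pseudogene Gm15937, both on the other strand, and the counting is not stated to use strand. Of the 36-base words of Ptger4, 15.0% are shared with other genes on either strand, with Gm15937 sharing the most. Gm15937 was below 0.2 CPM in every group mean. Ttc33 was higher, as Ptger4 was, in BA at day 30 (0.49, adjusted p 0.000316) and in Apc fl/+ tumours (0.78, adjusted p 0.000659). It was also higher in Apc fl/fl at day 4 (0.38, adjusted p 0.00885), where Ptger4 was not called (-0.07, adjusted p 0.652). Reads of the one cannot be told apart from reads of the other in the shared stretch.

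Both low-abundance receptors fell in BA colon at day 30. Ptger2, the EP2 receptor, which also signals through cyclic AMP (chromosome 14, 44988195 to 45003820, plus strand), was 1.79, 2.29, 1.63, 1.09 and 1.36 in BA at day 30, against 2.74, 3.51, 3.36 and 2.41 in WT. All BA libraries lay below all WT libraries, with a log2 fold change of -0.85 (-1.34 to -0.36, adjusted p 0.00729). In Apc fl/fl at day 4 it was 1.50 to 2.64 (median 2.15) against 3.48 to 5.02 (median 4.47), again with no overlap. The log2 fold change was -1.05 (adjusted p 2.12e-05), and the value of 1.50 is 1 read in replicate 1, the smallest library. The Apc fl/+ tumours had 2.70, 3.42, 3.34, 2.36 and 2.06 against 4.15, 3.85 and 3.76, a log2 fold change of -0.60 (adjusted p 0.0343) whose call was lost without any 1 of the 3 WT samples or of tumour replicates 1, 4 and 5 (adjusted p 0.0631 to 0.0952). In BA tumours it was 3.10 to 4.02 against 2.67 to 3.32 (0.28, -0.39 to 0.94, adjusted p 0.590).

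Ptger3, the EP3 receptor, which lowers cyclic AMP (chromosome 3, 157566892 to 157645888, plus strand), fell in BA colon at day 30, from 8.17, 3.66, 2.89 and 5.56 in WT to 2.32, 1.02, 2.03, 1.09 and 1.54. No BA library reached the lowest WT library, and the log2 fold change of -1.64 (-2.36 to -0.91, adjusted p 0.00154) was the largest of any member there. Against A, at 5.02, 5.52, 9.62 and 5.60, the log2 fold change was -1.98 (-2.62 to -1.34, adjusted p 0.000315). In BA tumours Ptger3 was 10.7, 11.8, 9.14 and 16.4 against 9.01, 10.2 and 6.67 (0.50, -0.12 to 1.12, adjusted p 0.277), and it was not called in Apc fl/+ tumours (-0.50, adjusted p 0.320) or in Apc fl/fl at day 4 (-0.36, adjusted p 0.556). In the same BA libraries the 6 mast cell markers summed to 25.9 to 38.7 against 59.4 to 87.5 CPM. Most of that sum was Kit, the 1 marker called lower of 4 tested (means of 23.0 and 60.4), while the median log2 fold change of the 4 was 0.11. The part of mast cells and of smooth muscle in the fall of Ptger3 was not tested.

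**Figure D3:**
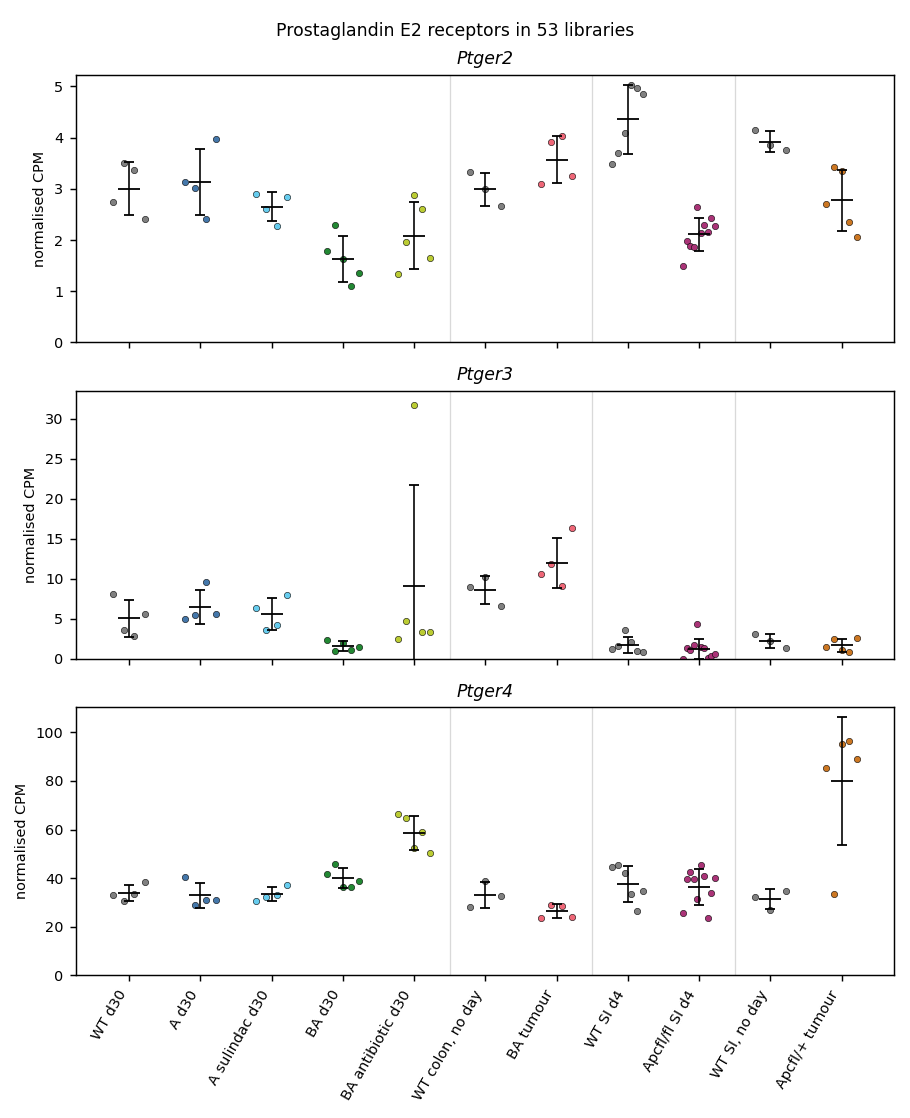
Normalised CPM of Ptger2, Ptger3 and Ptger4 in each of the 53 libraries by group, 1 point per library, with the group mean and SD as a bar (drawn down to 0 at the least). Ptger4 is highest in 4 of 5 Apc fl/+ tumours, at 85.3 to 96.3, and BA antibiotic replicate 3 has the top Ptger3 level at 31.7.

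Among the 7 other prostanoid receptors and partners, 5 were tested in each colon comparison. In BA tumours 0 were higher and 1 was lower, the prostaglandin F receptor Ptgfr (-2.11). In BA at day 30, 1 was higher, the Ptgfr-associated protein Ptgfrn (0.48, 277 against 202 CPM), and 3 were lower, down to Ptgfr at -1.43 (0.885 against 2.45). The Apc fl/+ tumours had 1 of 7 higher, Ptgfrn at 0.79, and 2 lower, down to the prostaglandin D receptor Ptgdr at -1.84. At day 4 in Apc fl/fl, 0 of 5 were higher and 3 lower, from the prostacyclin receptor Ptgir at -0.80 to Ptgdr at -4.91 (0.0560 against 1.84 CPM).

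The sulindac comparison asked whether A colon at day 30 differed after an inhibitor of cyclooxygenase, the enzyme of Ptgs1 and Ptgs2, had been given and withdrawn. No member differed in either A group from WT or between the A groups by edgeR, DESeq2 or limma with voom. At an unadjusted p under 0.05, 1 member differed between A and WT (Slco2a1, -0.36, 127, 125, 169 and 147 against 162, 182, 219 and 180) and 0 in either sulindac comparison, where 9.69%, 9.06% and 2.62% of all genes tested did so. Over all genes edgeR called 25 for A against WT (0.141% of those tested, 0.096% higher and 0.0452% lower), 9 for A with sulindac against WT (0.0507%, all higher) and 0 for sulindac against untreated A, and DESeq2 called 132, 108 and 7. Ptgs2 was 15.7, 5.31, 7.01 and 22.5 with sulindac and 6.06, 5.14, 12.6 and 6.23 without. The groups overlapped, with 2 treated libraries above every untreated one, and the difference of 0.74 had a 95% interval of -0.27 to 1.76. For the other 9 members the sulindac effect lay between -0.42 (Ptgis, -0.94 to 0.10) and 0.24 (Pla2g4a, -0.05 to 0.52). The interval of Ptgs2 leaves room for a rise of up to 1.76 log2 units. Those of the other 9 members leave room for changes of nearly 1 log2 unit in the less precise ones.

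BA was also compared with A at day 30, a comparison of 2 groups that differ by the Braf allele on an Alk5 fl/fl background. There 1 member was higher and 5 were lower, where 45.3% of all genes were called, 21.7% as higher and 23.6% as lower. Ptgs2 was not called (-0.60, -1.28 to 0.08, adjusted p 0.137). Neither were Ptges (-0.20, adjusted p 0.354), Pla2g4a (0.12, adjusted p 0.360) and Hpgd (0.02, adjusted p 0.927). Ptgis, Ptger2, Slco2a1 and Ptger3 fell with no overlap between the groups (36% of all genes had none). Slco2a1 was 127, 125, 169 and 147 in A, and the difference was -0.40 (-0.65 to -0.14, adjusted p 0.0168). Ptger2 was 3.13, 3.01, 2.42 and 3.98 in A, and the difference was -0.90 (-1.42 to -0.38, adjusted p 0.00987). Ptgs1 (-0.39, adjusted p 0.0388) and Ptger4 (0.32, adjusted p 0.0480) passed narrowly. The Ptgs1 call was lost without any library but BA replicate 3 (-0.41 to -0.31, adjusted p 0.0529 to 0.112), and that of Ptger4 without any library but BA replicate 4 and A replicate 1 (0.27 to 0.35, adjusted p 0.0536 to 0.113). The comparison shares its BA libraries with that against WT. The epithelial list summed to 15692 to 18458 CPM in BA and 7622 to 13302 in A. Smooth muscle markers summed to 1154 to 4571 in BA and 4009 to 7911 in A, and fibroblast markers to 1073 to 1344 and 1329 to 1729. Their part in the differences between BA and A was not tested.

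Antibiotics given to BA mice were followed by higher Ptger4. The treated libraries had 66.4, 64.8, 52.4, 58.9 and 50.5, above all 5 untreated BA libraries, a difference of 0.54 (0.35 to 0.73, adjusted p 0.00313), and above all WT libraries by 0.82 (0.61 to 1.03, adjusted p 8.91e-05). Of the 10 members 2 were called against untreated BA, both higher, where 13% of all genes tested were called, 4.53% as higher and 8.5% as lower (2172 genes, and 1300 without treated replicate 5). Ttc33, its neighbour on the other strand, did not move with it here (-0.21, adjusted p 0.158). The other call was Ptger3, at 2.47, 4.75, 31.7, 3.30 and 3.37 with antibiotics, all above the untreated libraries. Most of the log2 fold change of 2.53 (0.89 to 4.17, adjusted p 0.0471) came from replicate 3, without which it was 1.10 (adjusted p 0.0204), and the call was lost without any 1 of the 5 untreated libraries or treated replicates 2 and 5 (2.42 to 2.74, adjusted p 0.0515 to 0.108).

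**Figure D4:**
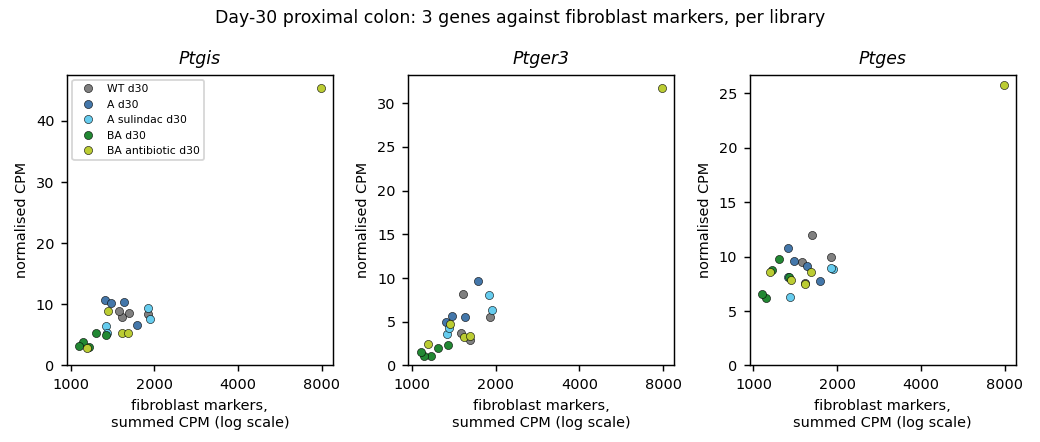
Normalised CPM of Ptgis, Ptger3 and Ptges (y axes) against the summed CPM of 9 fibroblast markers (x axes, log scale) in the day 30 proximal colon libraries, 1 point per library coloured by group. BA antibiotic replicate 3 stands apart at the top right of each panel, with 45.5 for Ptgis, 31.7 for Ptger3, 25.8 for Ptges and 7921 for the fibroblast list.

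Antibiotic replicate 3 also stood apart in Ptgis (45.5, the other 4 at 2.85 to 8.88) and Ptges (25.8, the other 4 at 7.47 to 8.63). Its 9 fibroblast markers summed to 7921 CPM where the other 4 libraries had 1144 to 1611, and its mesothelium, macrophage and endothelium lists reached 88.3, 721 and 195. Their part in these levels was not tested. Without it, the differences from untreated BA were 0.47 for Ptgis (adjusted p 0.306) and 0.03 for Ptges (adjusted p 0.909). Ptgs2 was 8.16, 14.1, 8.31, 7.76 and 4.90 with antibiotics, 4 of 5 above the highest untreated library, and the difference of 0.81 (0.19 to 1.44) did not pass with an adjusted p of 0.0817, while DESeq2 gave 0.0313. Against WT the treated libraries had lower Slco2a1 (111, 131, 104, 106 and 108, log2 fold change -0.70, adjusted p 0.000332), lower Hpgd, and lower Ptgs1 (19.3, 33.1, 28.7, 37.1 and 27.0, log2 fold change -0.49, adjusted p 0.0421). The Ptgs1 call was lost without treated replicate 5 or any 1 of the 4 WT libraries (-0.55 to -0.40, adjusted p 0.0518 to 0.109). In the lists of other genes, RNA of Pla2g2a fell with antibiotics against untreated BA, by 1.74 (1.33 against 4.35 CPM). That of Ltb4r1, a leukotriene B4 receptor, rose by 0.84 (2.85 against 1.57).

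The change from own WT was then compared between models with an interaction term. Between BA tumours and Apc fl/+ tumours 4 members differed, where 39.7% of all genes did (21.9% with a higher and 17.7% with a lower change in BA tumours). The change in BA tumours minus that in Apc fl/+ tumours was -1.97 for Ptgs2 (-3.02 to -0.92, adjusted p 0.00697) and -1.52 for Ptger4 (-2.32 to -0.72, adjusted p 0.00666), while Slco2a1 (1.31, adjusted p 0.0160) and Ptger2 (0.90, adjusted p 0.0371) stood higher relative to WT in BA tumours. The Slco2a1 difference was lost without WT proximal colon replicate 1 (1.10, adjusted p 0.0538), and that of Ptger2 without all but BA tumour replicate 1 and Apc fl/+ tumour replicate 2 of the 15 libraries (0.72 to 0.96, adjusted p 0.0505 to 0.100). For Hpgd the falls differed by -0.19, with an interval of -1.30 to 0.92 (adjusted p 0.795). Tissue, strain background and genotype change together here and cannot be told apart.

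Within the BA genotype, the effect in tumours differed from that in day 30 tissue for 8 members, where 16.3% of all genes did (9.87% higher and 6.46% lower in the tumour effect). Ptgs2 was higher in the tumour effect by 2.28 (1.34 to 3.21, adjusted p 0.00273), Ptger3 by 2.13 (1.15 to 3.11, adjusted p 0.00552) and Ptges by 1.09 (0.45 to 1.74, adjusted p 0.0223), while for Hpgd the difference was -1.93 (-2.75 to -1.11, adjusted p 0.00341). Ptges passed without every library but WT proximal colon replicate 3 (0.97, adjusted p 0.0736). The other 4, Ptgs1 (0.91), Ptgis (1.29), Ptger2 (1.12) and Ptger4 (-0.59), passed at adjusted p 0.0307 to 0.0473 and each lost its call in 5 to 13 of the 16 analyses that left out a library. The 2 WT groups differ in Ddx3y, which was above 10 CPM in 0 of 3 without a day and in 4 of 4 at day 30. No interaction fit held a term for Ddx3y, so the part of sex in these differences was not tested. Between Apc fl/+ tumours and Apc fl/fl small intestine at day 4, Ptgs2 differed by 3.55 (2.59 to 4.51, adjusted p 1.89e-05), Ptges by 1.55 (adjusted p 0.00313) and Ptger4 by 1.28 (adjusted p 0.00423), where 24.7% of all genes differed (12.4% higher and 12.3% lower in the tumour effect). Ptgs1 also passed (0.59, adjusted p 0.0488), and lost its call in 19 of the 24 analyses that left out a library. The Apc fl/+ tumours and their WT are inbred, and the day 4 mice are on the mixed background. Background, the number of floxed Apc copies and tumour change together here and cannot be told apart.

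**Figure D5:**
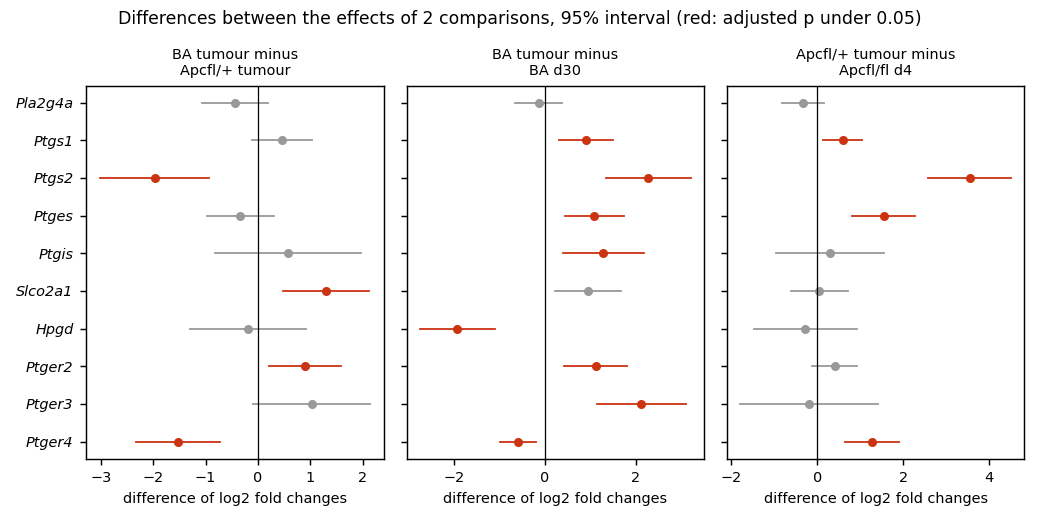
Difference between the log2 fold changes of 2 models, each against its own WT, for every member with its 95% confidence interval, from the edgeR interaction fits, in red where the adjusted p is under 0.05. Ptgs2 is lower in BA than in Apc fl/+ tumours (-1.97) and higher in BA tumours than in BA colon at day 30 (2.28).

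Marker genes of several other cell types were higher in tumours than in their WT, and no call above was adjusted for them. In BA tumours the 9 fibroblast markers summed to 4387 to 5604 CPM against 1806 to 2631 in WT, and the 8 macrophage markers to 703 to 2263 against 541 to 602. Among Apc fl/+ tumours the 7 tuft cell markers summed to 153 to 384 against 61.3 to 83.2, the 6 mast cell markers to 57.1 to 177 against 12.9 to 18.9, and the fibroblast list to 3047 to 3758 against 1116 to 1419. The neutrophil list was 20.9 to 115 against 5.46 to 6.44 in Apc fl/+ tumours and 127 to 481 against 3.15 to 5.92 in BA tumours, where Ly6g made up most of the sum and S100a8 and S100a9 were at means of 8.76 and 12.1. Other lists were lower. The smooth muscle list was 1792 to 3603 CPM in BA tumours against 2463 to 9615 in WT, with 3 of 8 called lower. In Apc fl/+ tumours it was 554 to 1038 against 1061 to 1859, with 4 of 8 called lower. The mast cell list was 20.3 to 45.1 in BA tumours against 46.4 to 74.8 in WT, with 0 of 4 tested markers called. The epithelial list was 6772 to 10905 CPM in BA tumours, and no epithelial marker was at 0 in any tumour. The part of these cells in the levels of Ptgs2, Ptges, Ptger4 and Hpgd was not tested.

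The leukotriene and lipoxygenase branch, which also starts from arachidonic acid, is given beside it. In BA tumours 0 of its 9 genes were called by edgeR, and 3 (Alox5ap, Alox12 and Ltb4r1) had an unadjusted p under 0.05. In BA at day 30, 1 was higher, the leukotriene A4 hydrolase Lta4h (0.23), and 3 were lower, down to Ltc4s at -0.76. Of the same 9, Apc fl/+ tumours had 3 higher, led by the lipoxygenase Alox12 (4.46, 31.6 against 1.34 CPM), and 6 lower, down to the receptor Cysltr2 at -1.26. At day 4 in Apc fl/fl, 0 were higher and 8 lower, from Lta4h at -0.47 to Ltb4r1 at -2.46 (3.27 against 17.1 CPM).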

How the data were processed

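RNA-seq was carried out on 53 libraries of mouse intestine, read as pairs of 36 bases. Raw counts per gene were deposited by the authors as 1 table without normalisation, made with FastQC 0.11.8, Trim Galore 0.6.4, HISAT2 2.1.0, featureCounts 1.6.4 and GRCm38 per the submitters' processing notes and the study's methods. The strand setting and the handling of reads with several places are not given in the sources used here, and the library kit does not mark strand. Identifiers were named from GENCODE M21 (55240 of 55421). Every one of the 53 columns belongs to a library, and 0 were left out.

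Libraries were grouped by their labels. Each comparison was fitted alone with edgeR 4.0.16 (filterByExpr, TMM scaling, quasi-likelihood test, two-sided), and p-values over the genes that passed the filter were adjusted (Benjamini-Hochberg, called under 0.05). Differences between effects are interaction terms in a fit of 4 groups. Normalised CPM use TMM factors over all libraries (0.786 to 1.29). Intervals cover 95%. A count floor of 3 in the smallest library is 5.80 CPM and in the largest 0.0914, for counting error only. The steps were tested on simulated data. Alternatives were DESeq2 1.42.0, limma 3.58.1 with voom, RLE scaling, no low-count filter, a replicate block, terms for Ddx3y, other sets of libraries and leaving out each library. R 4.3.3 and Python 3.11.15 were used. Promoter sequences are those of RefSeq.

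The members and all gene lists were chosen with earlier results of these data known. All members were to be named in each comparison, and from each list the called genes with the largest and smallest change. Equal replicate numbers mark different mice. Deviations of same-numbered libraries from their group means correlated at -0.44 to 0.23, and in no comparison was every pair above 0.1, so the numbers do not pair the libraries. The labels name no batch, and p-values measure only the spread between these libraries. Of the listed genes, Ptgr3 is not reported here.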

Additional observations from a re-analysis of the deposited data

Results flagged for a closer look

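In 13 of 90 searched sets of 4 to 10 libraries (a member in a group), the highest or lowest library stood apart. It lay further from its neighbour than Dixon's 95% critical value allows, which chance gives in about 1 in 20 independent, normally distributed sets. The sets here share libraries and hold untransformed CPM, so that rate need not apply. BA antibiotic replicate 3 was above the rest of its group in 3 of the 13, at 45.5 for Ptgis (next 8.88), 31.7 for Ptger3 (next 4.75) and 25.8 for Ptges (next 8.63). BA antibiotic replicate 2 was above its group in Slco2a1 at 131 (next 111). Apc fl/fl replicate 5 was above the other 9 in Ptges at 25.5 (next 11.4) and in Ptger3 at 4.33 (next 1.76). In A colon at day 30, replicate 3 was apart in Ptgs2 at 12.6 (next 6.23), in Ptger3 at 9.62 (next 5.60) and in Ptgis at 6.68, below the next at 10.3, and replicate 1 in Ptger4 at 40.4 (next 31.0). WT replicate 3 at day 30 was above its group in Ptgs1 at 51.4 (next 39.6), and WT replicate 2 at day 4 in Slco2a1 at 193 (next 139). In Apc fl/+ tumours, replicate 2 was below the other 4 in Ptger4, at 33.4 against 85.3 for the nearest. Values are normalised CPM.

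Of 30 interaction terms for members, 16 passed at an adjusted p under 0.05 in edgeR, each a difference between the log2 fold changes of 2 models against their own WT. For BA tumours minus Apc fl/+ tumours these were -1.97 (Ptgs2), 1.31 (Slco2a1), 0.90 (Ptger2) and -1.52 (Ptger4). For BA tumours minus BA colon at day 30 they were 0.91 (Ptgs1), 2.28 (Ptgs2), 1.09 (Ptges), 1.29 (Ptgis), -1.93 (Hpgd), 1.12 (Ptger2), 2.13 (Ptger3) and -0.59 (Ptger4). For Apc fl/+ tumours minus Apc fl/fl at day 4 they were 0.59 (Ptgs1), 3.55 (Ptgs2), 1.55 (Ptges) and 1.28 (Ptger4).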

How the results depend on the processing

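Of 49 called values of members, 25 held their call under every alternative run and 24 lost it under at least 1, and none of the 49 changed sign. The number of members called was 0 under every alternative in both A groups against WT and in sulindac against untreated A. In the others it was as follows. It moved by over 1.5 times under at least 1 alternative in all of these but Apc fl/fl at day 4 and Apc fl/+ tumours minus Apc fl/fl. In BA tumours it was 2, 1 with the replicate block, 0 with the term for Ddx3y and 1 to 2 without 1 library. In BA with antibiotics against WT it was 4, 2 with the replicate block and 2 to 5 without 1 library, and against untreated BA it was 2, 1 with limma, 1 with the replicate block and 1 to 3 without 1 library. In BA against WT at day 30 it was 7, 4 with all 5 day 30 groups in 1 fit and 6 to 8 without 1 library. In BA against A it was 6, 3 with the replicate block (Ptger2, Slco2a1 and Ptger4 then had adjusted p of 0.0520, 0.0647 and 0.0810) and 4 to 5 without 1 library. In Apc fl/+ tumours it was 7, 4 with the term for Ddx3y, 5 with the replicate block and 5 to 7 without 1 library, and in Apc fl/fl at day 4 it was 5, 6 with the replicate block and 5 to 7 without 1 library. Of the interactions, BA tumours minus Apc fl/+ tumours called 4 members and 2 to 4 without 1 library, BA tumours minus BA at day 30 called 8, 3 without the low-count filter and 3 to 8 without 1 library, and Apc fl/+ tumours minus Apc fl/fl 4, and 3 to 4 without 1 library. Counts of all genes called moved by over 1.5 times too: in BA tumours from 2527 to 931 with the replicate block and 168 with the term for Ddx3y, in Apc fl/+ tumours from 12650 to 8333 and 7030, in Apc fl/fl from 9504 to 5490 with only the libraries above 10 CPM of Gm13394, and with antibiotics against untreated BA from 2172 to 1284 with the block and 1074 with all 5 day 30 groups in 1 fit. In A against WT 25 became 132 with DESeq2 and 72 without the filter, and 15 to 28 without 1 library. With sulindac 9 became 108, 24 without the filter, 2 with the block, 29 in 1 fit of all day 30 groups and 4 to 18 without 1 library, and against A 0 became 7, 1 without the filter and 1 with the block. Without WT colon replicate 3 BA tumours minus BA at day 30 went from 3371 to 2225, and without WT small intestine replicate 3 Apc fl/+ tumours minus Apc fl/fl went from 5486 to 3603. The cause of these moves was not tested, other than that fewer libraries or more terms leave fewer degrees of freedom.

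Values that were not called crossed 0 under some alternatives. With the replicate block Ptgis in BA tumours was -0.12 (0.26 without it) and -0.84 with the term for Ddx3y, Ptgs2 in BA with antibiotics against WT was 0.0742 (-0.03), Ptgs1 in Apc fl/+ tumours 0.0323, also 0.0162 without the low-count filter (-0.05), Ptger3 in Apc fl/fl 0.0125 (-0.36) and Ptger4 in Apc fl/fl 0.00486, with 0.046 when replicates 1 and 8 were both left out and 0.0642 with only the libraries above 10 CPM of Gm13394 (-0.07). With those libraries only, a set added after the data were seen, Ptgs2 in Apc fl/fl was 0.14 (-0.17). Ptgis in BA with antibiotics against WT was -0.0121 with limma (0.74). Ptger4 with sulindac against A was -0.0139 without the filter and -0.0124 in 1 fit of all 5 day 30 groups, where Hpgd in BA against A was -0.00383. Slco2a1 in the Apc interaction was -0.0871 with RLE scaling and -0.0873 with DESeq2 (0.05).

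Leaving out 1 library moved these uncalled values across 0. The ranges in BA tumours were -0.32 to 0.0489 (Pla2g4a), -0.0111 to 0.50 (Ptgis) and -0.0553 to 0.65 (Slco2a1), and in BA at day 30 -0.0293 to 0.0675 (Pla2g4a). In BA with antibiotics against WT they were -0.24 to 0.39 (Ptges), -0.57 to 0.95 (Ptgis), -0.53 to 1.22 (Ptger3) and -0.29 to 0.0935 (Ptgs2), and against untreated BA -0.0688 to 0.15 (Ptgs1). In A against WT they were -0.12 to 0.0108 (Pla2g4a), -0.15 to 0.052 (Ptger4), -0.15 to 0.0745 (Ptges), -0.0461 to 0.19 (Ptger2) and -0.15 to 0.0124 (Ptgs1). With sulindac they were -0.0766 to 0.0439 (Ptger4) and -0.0832 to 0.47 (Ptger3) against WT, and -0.25 to 0.11 (Slco2a1), -0.0738 to 0.13 (Ptger4), -0.32 to 0.0282 (Ptgs1), -0.026 to 0.23 (Hpgd) and -0.45 to 0.043 (Ptger3) against A. In BA against A the range was -0.0751 to 0.18 (Hpgd), in Apc fl/+ tumours -0.10 to 0.0295 (Ptgs1), and for the interactions -0.54 to 0.16 (Hpgd, BA tumours minus Apc fl/+ tumours), -0.27 to 0.0696 (Pla2g4a, BA tumours minus BA at day 30), and -0.53 to 0.26 (Ptger3), -0.0805 to 0.15 (Slco2a1) and -0.56 to 0.069 (Hpgd) for Apc fl/+ tumours minus Apc fl/fl.

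The replicate block, a term for the replicate number of the labels, was run although the numbers do not pair the libraries. With the term for Ddx3y, the effect in either tumour comparison rests on 1 tumour. Calls and counts under that term therefore cannot decide what depends on sex. Depth limits Ptger2 and Ptger3 most, with medians of 52 and 55 reads per library.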

Other observations

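Over the 11 group means, the genes whose log2 CPM followed that of Ptgs2 most closely among 13857 searched were Scara3 (Pearson r 0.946), Ephb6 (0.942), Thbd (0.936), Slc44a2 (0.935) and Trpv4 (0.934). For Hpgd they were Adtrp (0.947), Frat2 (0.946), Tmem238l (0.943), Cyp4f13 (0.942) and Cryl1 (0.938). The 11 means share tissues, WT groups and library properties, so these are descriptions of likeness with no test.

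The WT groups, which enter every comparison as controls, differed among themselves in several members. Slco2a1 was 22.4 to 52.4 normalised CPM in the WT proximal colon that carries no day and 162 to 219 in WT proximal colon at day 30. In WT small intestine it was 117 to 193 at day 4 on the mixed background and 59.6 to 72.2 on the inbred background. Ptger3 was 2.89 to 8.17 in WT proximal colon at day 30, and 0.882 to 3.56 in WT small intestine at day 4. These differences between controls were not tested.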
